A study of Mus musculus with 8 samples.

Results

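The semaphorin, plexin, ephrin, Eph receptor, slit, robo, netrin and Unc5 gene families were followed in cultured mouse brain pericytes, with each ligand family set beside its receptors. Members were taken by gene symbol alone, and 65 of the 54532 gene identifiers in the count files were members: 20 semaphorins, 9 plexins, 8 ephrins, 14 Eph receptors, 3 slits, 4 robos, 3 netrins and 4 Unc5 receptors. *Ntn3* was not analysed here. The cultures were primary brain pericytes of WT genotype, 4 treated with vehicle (replicates 1 to 4) and 4 treated with TGF-β1 (replicates 5 to 8). TGF-β1 was given at 5 μg mL−1 for 48 h, starting after a day in culture. This concentration is copied from the methods, where it stands as written, and is high for this ligand. Both treatments were applied to cells of 4 separate isolates, but the labels do not tie a vehicle culture to a TGF-β1 culture. The cells had been expanded through several passages on collagen-coated plastic, so they are a model of pericytes away from vessels and blood flow. Each library held 45255235 to 47651397 counts in the vehicle group and 45988208 to 46827358 in the TGF-β1 group. Levels are given below as CPM, the count of a gene scaled to the TMM-adjusted total of the tested genes in its library, in replicate order, and 3 counts equal 0.0631 to 0.0658 CPM.

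These families were first known as guidance cues for growing axons, and they also act between vascular cells. Semaphorins bind plexins, in the secreted class 3 mostly together with neuropilins. Ephrins are membrane-bound ligands of Eph receptors on neighboring cells, and signals run in both directions. Slits bind robos, and netrins bind Dcc, neogenin and Unc5 receptors. In blood vessels, ephrin-B2 is needed for mural cells to attach to the vessel wall, and semaphorin 3E repels vessels through plexin D1.

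Of the 65 members, 60 passed the count filter and were tested with edgeR's quasi-likelihood test. With TGF-β1, 27 members were higher and 15 were lower at a Benjamini-Hochberg adjusted p under 0.05, and 18 were not called. *Ntn5* and *Robo4* passed the count filter only through the TGF-β1 cultures, where they were high, so their calls were favored by the filter, and with at least 10 counts required in every culture 25 members were higher. Of all 22544 tested genes, 20.9% were higher and 20.3% lower. The 42 called members were 70% of those tested, where 41.3% of all tested genes were called. The share called rises with the level of a gene, and members and other genes were therefore also counted among genes with a group mean of at least 1 CPM. There, 25 of 54 members were higher and 15 lower, or 74.1% called, where 26.1% of 16898 genes were higher, 25.0% lower and 51.1% called. Changes of at least 0.5 on the log2 scale were called in 19 of the 60 members (31.7%), 11 higher, *Ntn5* and *Robo4* included, and 8 lower, against 14.0% of all tested genes, 6.15% higher and 7.89% lower. Changes of at least 2 were called for *Sema7a*, *Sema4f* and *Epha5*, and for 0.825% of all tested genes. The vehicle and TGF-β1 cultures did not overlap for 43 members (71.7%), and for 37.9% of all tested genes. All called members except *Plxnc1* were among these. With a group mean of at least 1 CPM, changes of at least 0.5 were called in 17 of 54 members (31.5%), 9 higher and 8 lower, and in 14.7% of the genes, while the groups did not overlap for 75.9% and 46.7%. The median log2 fold change was 0.19 over the tested members and -0.01 over all tested genes, and the median of its size was 0.40 and 0.18. Of 33 tested ligands 13 rose and 9 fell, and of 27 tested receptors 14 rose and 6 fell. Whether the members stand apart from other genes of like length or level was not tested. The families were chosen with earlier results of these data known, so the shares above cannot decide it. The p-values weigh each difference against the spread between these cultures, in a model without pairing by isolate. In whole-culture RNA, a change in the number of cells that make a transcript cannot be told apart from a change in transcript per cell.

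**Figure D1:**
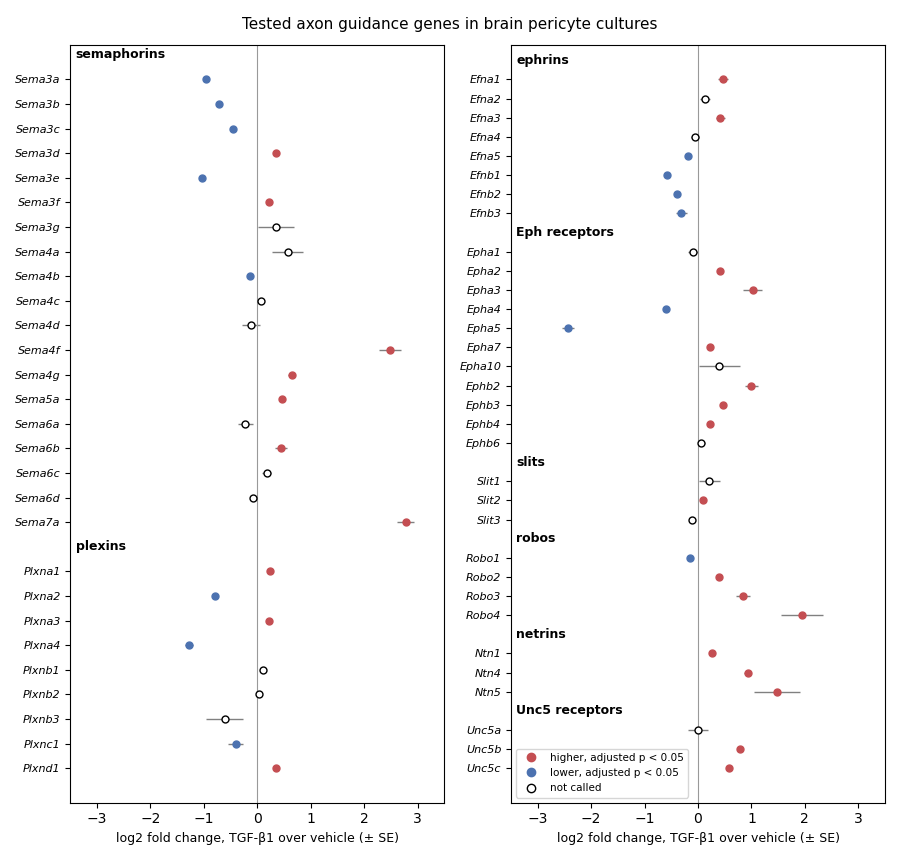
Log2 fold change (TGF-β1 over vehicle, ± SE, 4 cultures per group) of the 60 tested members, grouped by family, with filled points for called members. *Sema7a* (2.78) and *Sema4f* (2.48) lie farthest to the right and *Epha5* (-2.43) farthest to the left.

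The labelled cell type and treatment were checked first. Among 10 pericyte markers, *Pdgfrb* and *Cspg4* were higher with TGF-β1, *Rgs5* and *Anpep* were lower, 3 were not called and 3 (*Kcnj8*, *Abcc9* and *Vtn*) were below the filter, with *Kcnj8* at 0 to 2 counts. The summed level of the pericyte list was 414 to 434 CPM in the vehicle cultures and 569 to 591 CPM with TGF-β1. Most of it was *Pdgfrb* (202 CPM in vehicle and 291 CPM with TGF-β1) and *Cspg4* (82.9 and 169 CPM). *Rgs5* (8.62 and 2.13 CPM) and *Anpep* (40.5 and 30.1 CPM) went the other way, so the sum does not describe the list as a whole. Of 7 fibroblast markers, *Col1a1* and *Col1a2* were higher, *Fbln1* (446 to 196 CPM), *Dcn* and *Dpt* were lower, 1 was not called and 1 was below the filter. The list summed to 4158 to 4331 CPM and 5509 to 5765 CPM, most of it *Col1a1* (1587.5 and 2525 CPM) and *Col1a2* (2121 and 2852 CPM). Of 8 neuronal markers, *Tubb3* (2.11 CPM in vehicle and 7.91 CPM with TGF-β1) was higher and 2 were lower, and the list summed to 15.6 to 17.95 CPM and 16.8 to 20.5 CPM. Of 8 endothelial markers, *Flt1* was higher (81.7 to 99.2 CPM), *Tek* was lower (2.71 to 1.99 CPM), 3 were not called and 3 were below the filter. The endothelial list summed to 471 to 484 CPM and 472 to 498 CPM, with *Cdh5* (375 CPM in vehicle and 367 CPM with TGF-β1) and *Pecam1* (1.11 CPM in vehicle and 1.11 CPM with TGF-β1). The astrocyte list (2 higher, 2 lower) moved from 248 to 260 CPM to 224 to 236 CPM, the macrophage and microglia list (1 higher, 0 lower) from 104 to 109 CPM to 102 to 105 CPM, nearly all of it *Tmem119* (102 and 98.5 CPM), and the oligodendrocyte and Schwann list (1 higher, 1 lower) from 4.21 to 5.59 CPM to 5.42 to 6.07 CPM. In every culture, 5 of 10 pericyte, 2 of 7 fibroblast, 3 of 8 endothelial, 4 of 8 neuronal, 1 of 7 astrocyte, 4 of 7 oligodendrocyte and Schwann and 4 of 7 macrophage and microglia markers were under 1 CPM. The part of these other cell types in the changes below was not tested. Among genes known to respond to TGF-β, *Ltbp2* (log2 fold change 1.89), *Cthrc1* (1.06), *Skil* (0.97) and *Smad7* (0.60) rose, and *Tgfbi* fell (-1.50).

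To show the sequence beside the largest responses, the 250 bases upstream of a RefSeq transcript start are printed for the 3 called members that rose most and the 3 that fell most, among those with a group mean of at least 1 CPM and an entry in the promoter table. The sequences are from RefSeq on GRCm38.p6, read 5′ to 3′ on the strand of the gene. *Sema7a* lies at chr9:57939862-57940111 (plus strand), *Sema4f* at chr6:82939770-82940019 (minus), *Epha3* at chr16:63864176-63864425 (minus), *Epha5* at chr5:84417383-84417632 (minus), *Sema3e* at chr5:14025026-14025275 (plus) and *Sema3a* at chr5:13396534-13396783 (plus). The windows of the other 5 genes overlap no gene in GENCODE M21, and the *Sema3a* window lies within the *Sema3a* gene between exons, upstream of a transcript that starts inside it. Capitals mark CAGAC, the short box bound by SMAD proteins that TGF-β activates, or its reverse complement GTCTG.
Sema7a: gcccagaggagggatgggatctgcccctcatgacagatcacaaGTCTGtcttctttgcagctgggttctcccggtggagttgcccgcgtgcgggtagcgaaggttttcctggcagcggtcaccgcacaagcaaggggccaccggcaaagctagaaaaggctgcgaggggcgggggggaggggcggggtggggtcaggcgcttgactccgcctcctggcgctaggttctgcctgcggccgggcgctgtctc
Sema4f: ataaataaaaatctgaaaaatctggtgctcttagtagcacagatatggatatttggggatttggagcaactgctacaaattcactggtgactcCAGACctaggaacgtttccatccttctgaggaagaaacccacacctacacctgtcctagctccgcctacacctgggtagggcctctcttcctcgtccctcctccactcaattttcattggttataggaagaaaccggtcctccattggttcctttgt
Epha3: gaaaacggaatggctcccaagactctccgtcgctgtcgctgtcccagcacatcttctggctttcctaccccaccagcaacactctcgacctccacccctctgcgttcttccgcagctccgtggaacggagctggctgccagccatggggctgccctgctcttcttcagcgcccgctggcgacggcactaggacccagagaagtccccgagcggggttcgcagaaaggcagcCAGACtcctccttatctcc
Epha5: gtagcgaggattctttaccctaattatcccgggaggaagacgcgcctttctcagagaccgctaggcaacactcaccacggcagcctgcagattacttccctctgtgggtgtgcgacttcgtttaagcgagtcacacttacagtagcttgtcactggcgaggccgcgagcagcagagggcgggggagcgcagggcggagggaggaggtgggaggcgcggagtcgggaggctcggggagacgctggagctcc
Sema3e: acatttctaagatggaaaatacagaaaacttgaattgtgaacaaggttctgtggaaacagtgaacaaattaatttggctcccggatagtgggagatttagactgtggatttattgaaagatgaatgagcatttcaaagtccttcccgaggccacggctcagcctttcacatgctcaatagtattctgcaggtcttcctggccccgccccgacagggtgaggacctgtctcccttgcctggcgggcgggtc
Sema3a: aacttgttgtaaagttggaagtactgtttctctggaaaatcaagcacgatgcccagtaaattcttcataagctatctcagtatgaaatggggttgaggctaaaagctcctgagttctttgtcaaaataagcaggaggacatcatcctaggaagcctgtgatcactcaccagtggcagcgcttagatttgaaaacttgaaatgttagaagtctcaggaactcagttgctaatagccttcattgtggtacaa

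The 3 windows of genes that rose each hold 1 CAGAC box, 207 bases before the start in *Sema7a*, 157 in *Sema4f* and 19 in *Epha3*, and the 3 windows of genes that fell hold none. Over all members the boxes were spread differently. An entry existed for 56 of the 65 members, with 72 windows. On either strand, CAGAC was present in 15 of 30 windows of members that rose, 5 of 13 windows of members that fell and 15 of 25 windows of members that were not called. It was present in 42.2% of all 32851 windows. The palindromic GTCTAGAC was in no member's window and in 0.167% of all windows. The AP-1 motif TGANTCA was in 1 of 30, 0 of 13 and 2 of 25 member windows, against 6.75% of all windows. The E-box CAGGTG was in 4 of 30, 2 of 13 and 4 of 25, against 17.2%. GTCTAGAC holds no CAGAC, and the other motifs can share end letters with it. Such matches are descriptions of letters and not of binding.

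Semaphorins went in both directions, with 7 of 19 tested members higher, 5 lower and 7 not called. For all tested genes the shares were 20.9% higher and 20.3% lower, and a difference of the semaphorins from these was not tested. The members with the largest rises were membrane-attached. *Sema7a* (ENSMUSG00000038264, chr9:57940112-57962865 on GRCm38, plus strand) encodes a lipid-anchored semaphorin that binds plexin C1 and the integrin β1 subunit. It was at 3.38, 4.21, 4.42 and 3.99 CPM in the vehicle cultures and at 21.9, 30.8, 25.4 and 31.9 CPM with TGF-β1. Every TGF-β1 culture was above every vehicle culture, and the mean moved from 4.00 ± 0.447 to 27.5 ± 4.71 CPM (SD, n = 4), a 6.86-fold rise (log2 fold change 2.78 ± 0.16 SE, edgeR adjusted p = 1.79e-06). Its printed upstream window is the one with the CAGAC box farthest from the start. *Sema4f* (ENSMUSG00000000627, chr6:82911885-82939769 on GRCm38, minus strand), a transmembrane semaphorin, was at 0.608, 0.439, 0.274 and 0.433 CPM and rose to 2.20, 2.79, 2.29 and 2.51 CPM. The groups were apart by a wide margin (log2 fold change 2.48 ± 0.21 SE, edgeR adjusted p = 6.79e-14), although the gene held only 13 to 128 counts per library. *Sema4g*, of the same class, moved from 8.81, 8.75, 7.24 and 8.17 CPM to 12.8, 12.6, 14.2 and 11.9 CPM, with no overlap (log2 fold change 0.64 ± 0.07 SE, edgeR adjusted p = 6.43e-10). *Sema5a*, a transmembrane semaphorin with thrombospondin repeats, moved from 69.9, 69.4, 72.6 and 70.9 CPM to 92.5, 99.1, 103 and 97.2 CPM, again without overlap (log2 fold change 0.47 ± 0.03 SE, edgeR adjusted p = 3.53e-17). *Sema6b* rose from a mean of 3.08 to 4.18 CPM and *Sema4b* fell from 70.3 to 64.3 CPM. *Sema4a*, *Sema4c*, *Sema4d*, *Sema6a*, *Sema6c*, *Sema6d* and *Sema3g* were not called, and *Sema5b* was below the filter at 2 to 12 counts.

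Of the 7 secreted class 3 semaphorins, 4 were lower, 2 higher and 1 not called. The shares of all tested genes were 20.3% lower and 20.9% higher, and a difference from these was not tested. *Sema3a* (ENSMUSG00000028883, chr5:13125414-13602565 on GRCm38, plus strand), the founding repulsive semaphorin, which signals through neuropilin 1 and A plexins, was at 65.6, 68.3, 71.7 and 68.5 CPM in vehicle and at 33.9, 35.4, 35.4 and 35.9 CPM with TGF-β1. Its groups were far apart and both narrow, with means of 68.5 ± 2.48 and 35.1 ± 0.858 CPM (SD, n = 4) (log2 fold change -0.96 ± 0.04 SE, edgeR adjusted p = 6.21e-26). *Sema3e* (ENSMUSG00000063531, chr5:14025276-14256689 on GRCm38, plus strand), the ligand of plexin D1, was at 26.6, 25.6, 25.99 and 26.2 CPM and fell to 13.4, 11.9, 12.1 and 13.3 CPM. This was the largest fall among the semaphorins (log2 fold change -1.04 ± 0.05 SE, edgeR adjusted p = 6.46e-21), and the groups did not overlap. *Sema3b* fell from 26.7, 25.6, 25.4 and 27.04 CPM to 17.5, 14.7, 16.6 and 15.04 CPM, without overlap (log2 fold change -0.71 ± 0.05 SE, edgeR adjusted p = 3.07e-15). *Sema3c*, a class 3 member that can signal through neuropilins and plexin D1, fell from 122, 117, 132 and 128 CPM to 94.5, 91.5, 90.4 and 87.3 CPM (log2 fold change -0.46 ± 0.03 SE, edgeR adjusted p = 2.34e-15). Per kilobase of exon, *Sema3c* had the highest level of any semaphorin in both groups (17.5 and 12.7 CPM per kb). *Sema3d* rose from 15.8 to 20.2 CPM (log2 fold change 0.35 ± 0.05 SE, edgeR adjusted p = 6.91e-07) and *Sema3f* from 15.8 to 18.5 CPM (log2 fold change 0.23 ± 0.06 SE, edgeR adjusted p = 0.000908).

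Neighbors on a chromosome did not always move together. On chromosome 5, *Sema3d*, *Sema3a* and *Sema3e* follow each other on the plus strand, with gaps of 536.5 and 422.7 kb on GRCm38, and the first rose where the other two fell. On chromosome 9, *Sema3b* and *Sema3f* lie 72.3 kb apart on the minus strand and moved in opposite directions.

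**Figure D2:**
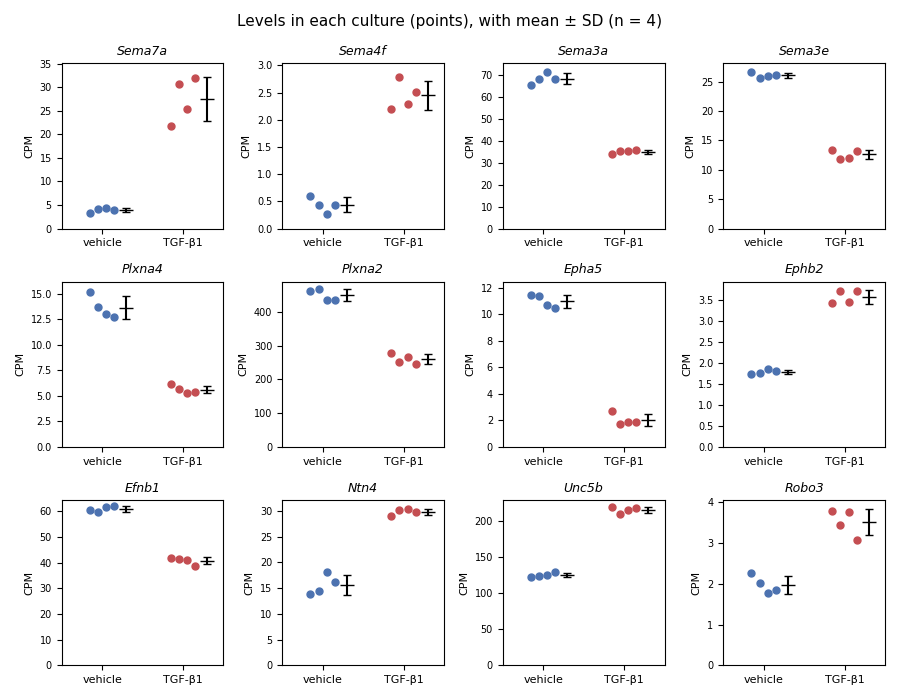
CPM in each culture (points) with the mean ± SD (4 cultures per group) for 12 members, each panel with its own axis from 0. The vehicle and TGF-β1 points do not overlap in any panel, and *Epha5* has 1 TGF-β1 culture (2.71 CPM) above the other three.

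Plexins, the semaphorin receptors, split within the A class, where *Plxna2* and *Plxna4* fell and *Plxna1* and *Plxna3* rose. *Plxna4* (ENSMUSG00000029765, chr6:32144268-32588192 on GRCm38, minus strand), a receptor for class 3 semaphorins with neuropilin 1 and for class 6 semaphorins directly, was at 15.2, 13.7, 13.01 and 12.7 CPM in vehicle and 6.13, 5.66, 5.26 and 5.43 CPM with TGF-β1. Every treated culture was below every vehicle culture (log2 fold change -1.28 ± 0.08 SE, edgeR adjusted p = 1.45e-18). *Plxna2* (ENSMUSG00000026640, chr1:194618218-194816869 on GRCm38, plus strand) was at 461, 467, 434 and 435 CPM and fell to 277, 252, 266 and 247 CPM. The groups did not overlap, and the means were 449 ± 17.2 and 260.5 ± 13.98 CPM (SD, n = 4) (log2 fold change -0.79 ± 0.03 SE, edgeR adjusted p = 4.67e-14). *Plxna1* moved the other way, from 291, 289.6, 296 and 282 CPM to 347, 329.8, 346 and 339 CPM (log2 fold change 0.23 ± 0.02 SE, edgeR adjusted p = 2.56e-11), and *Plxna3* from 18.03, 18.99, 17.3 and 18.2 CPM to 21.2, 21.5, 20.9 and 20.9 CPM (log2 fold change 0.22 ± 0.05 SE, edgeR adjusted p = 0.000296). Both groups of treated cultures lay above the vehicle cultures by a small margin, and 10.7% of the exon length of *Plxna1* is shared with another annotated gene on the opposite strand. Per kilobase, *Plxna1* and *Plxna2* had mean levels of 32.00 and 26.2 CPM per kb in the vehicle cultures and of 37.6 and 15.2 CPM per kb with TGF-β1.

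The receptor of *Sema3e*, *Plxnd1*, was at 62.5, 65.4, 67.6 and 61.3 CPM and rose to 83.99, 82.4, 82.4 and 79.7 CPM (log2 fold change 0.35 ± 0.03 SE, edgeR adjusted p = 7.69e-13), so ligand and receptor moved in opposite directions. *Plxnc1*, a receptor of semaphorin 7A, was at 3.25, 4.12, 3.01 and 3.44 CPM and 2.64, 2.22, 3.49 and 2.13 CPM. Its groups overlapped and the call was weak (log2 fold change -0.40 ± 0.14 SE, edgeR adjusted p = 0.0192), with an adjusted p of 0.109 without vehicle replicate 2, 0.0783 without TGF-β1 replicate 6 and 0.0999 without TGF-β1 replicate 8. The B plexins, receptors of several class 4 semaphorins, were not called. Among them was *Plxnb2*, the member with the highest level per length, at 105 CPM per kb in vehicle and 106 with TGF-β1, with a log2 fold change of 0.02 ± 0.02 (SE). The class 4 ligands *Sema4f* and *Sema4g* therefore rose beside B plexins that were not called. The other receptor subunits of these ligands were looked at in a separate list. The neuropilin *Nrp2*, preferred by *Sema3f*, rose from 286 to 350.1 CPM (log2 fold change 0.29 ± 0.03 SE, edgeR adjusted p = 8.50e-13), and *Nrp1*, used by *Sema3a*, was not called (126 and 125 CPM, log2 fold change -0.02 ± 0.03 SE). The integrin subunits of the semaphorin 7A receptor, chosen after their values were seen, were higher for *Itgb1* (832 to 1132 CPM, log2 fold change 0.44 ± 0.02 SE, edgeR adjusted p = 1.81e-21) and lower for *Itga1* (239.7 to 186 CPM, log2 fold change -0.36 ± 0.03 SE, edgeR adjusted p = 2.23e-16).

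**Figure D3:**
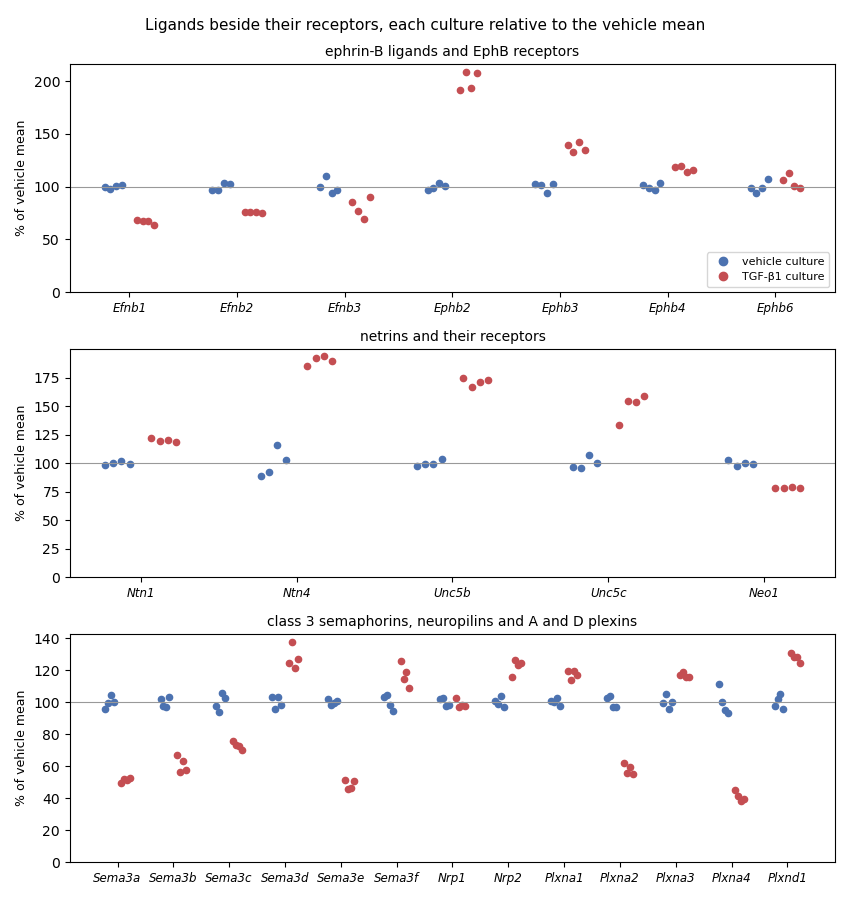
Level of each culture (points) as a percentage of the vehicle mean of the same gene, for ephrin-B ligands with EphB receptors, netrins with their receptors, and class 3 semaphorins with neuropilins and A and D plexins. *Efnb1* lies at 63.5% to 68.5% with TGF-β1 where *Ephb2* lies at 192% to 209%, and *Sema3e* at 45.7% to 51.3% where *Plxnd1* lies at 124% to 131%.

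Of 8 ephrins, 4 were lower, 2 higher and 2 not called, and all 3 ephrin-B genes fell. Of all tested genes, 20.3% were lower and 20.9% higher, and whether the ephrins differ from this was not tested. *Efnb1* (ENSMUSG00000031217, chrX:99136130-99148991 on GRCm38, plus strand) was at 60.7, 59.6, 61.6 and 62.1 CPM in vehicle and 41.8, 41.4, 41.03 and 38.7 CPM with TGF-β1. The 4 treated cultures lay within a narrow range below all vehicle cultures (log2 fold change -0.58 ± 0.03 SE, edgeR adjusted p = 1.30e-18). *Efnb2* was at 165, 166, 177 and 175 CPM and fell to 129, 129.6, 130.0 and 129 CPM, also without overlap (log2 fold change -0.40 ± 0.03 SE, edgeR adjusted p = 3.85e-17). *Efnb3* moved from 4.43, 4.87, 4.17 and 4.29 CPM to 3.78, 3.42, 3.08 and 4.02 CPM. This was a weak call (log2 fold change -0.31 ± 0.11 SE, edgeR adjusted p = 0.0195) with an adjusted p of 0.0785 without vehicle replicate 2, 0.0505 without TGF-β1 replicate 6 and 0.0902 without TGF-β1 replicate 7. The ephrin-A ligands, which are lipid-anchored, were divided. *Efna1* rose from 4.47, 5.48, 4.74 and 4.74 CPM to 6.57, 6.12, 7.01 and 7.09 CPM (log2 fold change 0.46 ± 0.09 SE, edgeR adjusted p = 5.88e-05). *Efna3*, its neighbor 32.8 kb away on chromosome 3, rose from 7.18, 6.34, 6.88 and 6.78 CPM to 8.92, 10.1, 7.90 and 9.32 CPM (log2 fold change 0.42 ± 0.08 SE, edgeR adjusted p = 3.89e-05). *Efna4*, a further 10.4 kb along the same strand, was not called. Of the exon length of *Efna3* 14.1% is shared with another annotated gene, and of *Efna4* 10.5%, on the opposite strand in both. *Efna5*, which had the highest level per length of the ephrins (30.7 CPM per kb in vehicle), fell from 126, 122, 124 and 123 CPM to 108, 111, 109 and 109 CPM (log2 fold change -0.18 ± 0.03 SE, edgeR adjusted p = 1.40e-07).

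Of 11 tested Eph receptors, 6 were higher, 2 lower and 3 not called. Over all tested genes 20.9% were higher and 20.3% lower, and a difference of the Eph receptors from this was not tested. The largest change of all receptors was a fall in *Epha5* (ENSMUSG00000029245, chr5:84054761-84417382 on GRCm38, minus strand), a receptor best known from neurons, whose printed upstream window holds no CAGAC box. It was at 11.4, 11.4, 10.7 and 10.5 CPM in vehicle and at 2.71, 1.72, 1.85 and 1.85 CPM with TGF-β1. Replicate 5 kept a higher level than the other TGF-β1 cultures, still far below every vehicle culture, and the mean went from 10.99 ± 0.481 to 2.03 ± 0.453 CPM (SD, n = 4) (log2 fold change -2.43 ± 0.10 SE, edgeR adjusted p = 1.91e-23). *Epha4*, which binds ephrins of both classes, fell from 119, 115, 119.5 and 117 CPM to 78.99, 76.3, 79.8 and 76.2 CPM, without overlap (log2 fold change -0.59 ± 0.03 SE, edgeR adjusted p = 4.85e-22). It had the highest level per length of the A class in vehicle (14.6 CPM per kb). *Epha3* rose from 0.825, 0.877, 1.05 and 0.910 CPM to 1.83, 2.00, 2.05 and 1.60 CPM (log2 fold change 1.03 ± 0.18 SE, edgeR adjusted p = 6.59e-06) and stayed near 2 CPM or lower. *Epha2*, the main receptor of ephrin-A1, rose from 37.5, 39.4, 40.7 and 41.4 CPM to 52.4, 53.4, 51.1 and 54.9 CPM (log2 fold change 0.41 ± 0.04 SE, edgeR adjusted p = 7.09e-13), so *Efna1* and *Epha2* rose together. *Epha7* was at 33.6, 32.4, 31.1 and 32.1 CPM and 40.4, 36.9, 37.2 and 37.2 CPM, a small rise (log2 fold change 0.23 ± 0.04 SE, edgeR adjusted p = 7.78e-06).

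No tested EphB receptor was lower, while all their ephrin-B ligands were. Since 20.3% of all tested genes were lower and 20.9% higher, such a split in so few genes may be unremarkable, which was not tested. *Ephb2* (ENSMUSG00000028664, chr4:136647539-136835988 on GRCm38, minus strand) was at 1.74, 1.75, 1.85 and 1.80 CPM in vehicle and 3.43, 3.72, 3.45 and 3.70 CPM with TGF-β1 with tight groups far apart (log2 fold change 1.00 ± 0.13 SE, edgeR adjusted p = 1.28e-08). *Ephb3* rose from 45.96, 45.4, 42.1 and 46.04 CPM to 62.5, 59.8, 63.8 and 60.5 CPM (log2 fold change 0.46 ± 0.04 SE, edgeR adjusted p = 7.24e-15). *Ephb4*, the receptor of ephrin-B2 in veins, rose from 72.97, 70.8, 69.4 and 74.8 CPM to 85.2, 86.3, 81.8 and 83.5 CPM (log2 fold change 0.23 ± 0.03 SE, edgeR adjusted p = 3.08e-08). It had the highest level per length of the Eph receptors in both groups (15.5 and 18.1 CPM per kb). *Ephb6*, which lacks kinase activity, was not called, and *Ephb1* was below the filter at 0 to 10 counts. *Epha1* and *Epha10* were also not called, and *Epha6* and *Epha8* were below the filter.

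**Figure D4:**
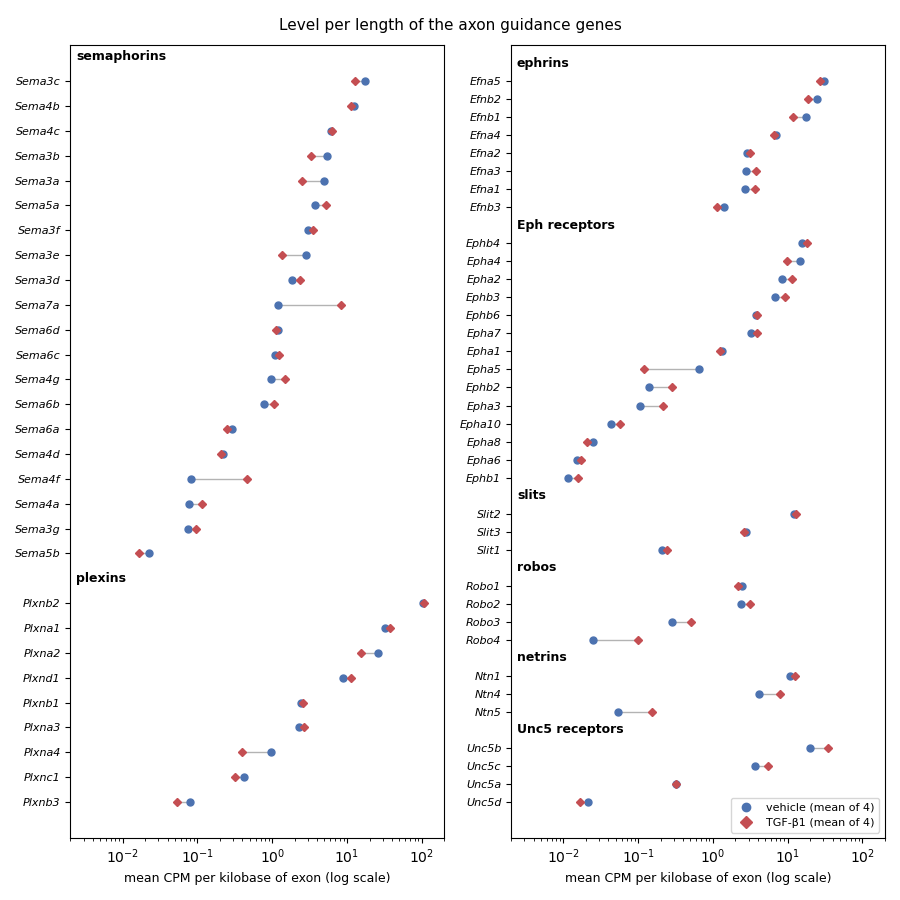
Mean CPM per kilobase of exon (log axis, 4 cultures per group, circles for vehicle and diamonds for TGF-β1) of the 65 members, ordered by the vehicle level within each family. *Plxnb2* has the highest level in both groups, and the long lines of *Sema7a*, *Sema4f* and *Epha5* show large changes at unlike levels. The line of *Robo4* is also long, but at 4 to 29 counts per library, and this gene passed the filter only through the TGF-β1 cultures.

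Among slits, *Slit2* was by far the most abundant per length (11.99 CPM per kb in vehicle, against 2.77 for *Slit3* and 0.209 for *Slit1*). It was at 295, 307, 313 and 304 CPM in vehicle and 319.7, 327, 332 and 323 CPM with TGF-β1, a rise of 0.09 ± 0.02 on the log2 scale (edgeR adjusted p = 0.000935). *Slit1* and *Slit3* were not called. The 4 robo receptors were called, *Robo4* after passing the filter only through the TGF-β1 cultures. By comparison, 41.3% of all tested genes were called, and a difference of the robos from this was not tested. *Robo1* fell slightly, from 41.1, 40.9, 39.7 and 38.9 CPM to 36.9, 36.8, 34.5 and 37.05 CPM (log2 fold change -0.15 ± 0.04 SE, edgeR adjusted p = 0.00188). *Robo2*, 845.7 kb from it on chromosome 16, rose from 40.4, 42.1, 40.4 and 39.8 CPM to 49.8, 54.2, 52.3 and 55.9 CPM (log2 fold change 0.38 ± 0.04 SE, edgeR adjusted p = 7.11e-12). *Robo3*, a divergent robo that modulates slit responses in crossing axons, rose from 2.26, 2.02, 1.77 and 1.84 CPM to 3.80, 3.44, 3.75 and 3.09 CPM (log2 fold change 0.84 ± 0.13 SE, edgeR adjusted p = 1.03e-06). *Robo4*, best known from endothelium, rose from 0.0868, 0.0877, 0.210 and 0.152 CPM to 0.393, 0.610, 0.480 and 0.617 CPM (log2 fold change 1.94 ± 0.39 SE, edgeR adjusted p = 6.15e-05), at only 4 to 29 counts per library. The last 2 genes lie tail to tail on chromosome 9 with 553 bases between them.

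The 3 netrins and 2 of 3 tested Unc5 receptors were higher with TGF-β1, and none was lower, with *Ntn5* among those tested only through its level with TGF-β1. The shares of all tested genes were 20.9% higher and 20.3% lower, and whether these small families differ from them was not tested. *Ntn1*, the classical chemoattractant, moved from 65.5, 66.7, 67.6 and 66.1 CPM to 81.02, 79.3, 79.8 and 78.9 CPM, without overlap (log2 fold change 0.26 ± 0.03 SE, edgeR adjusted p = 3.36e-10). *Ntn4* (ENSMUSG00000020019, chr10:93640681-93747207 on GRCm38, plus strand), a netrin of basement membranes that binds laminin, moved from 13.9, 14.5, 18.2 and 16.1 CPM to 29.1, 30.1, 30.5 and 29.8 CPM. The vehicle cultures were more spread than the treated cultures and all lay below them (log2 fold change 0.93 ± 0.06 SE, edgeR adjusted p = 4.50e-16). *Ntn5* moved from 0.0868, 0.132, 0.126 and 0.130 CPM to 0.458, 0.414, 0.218 and 0.255 CPM (log2 fold change 1.48 ± 0.44 SE, edgeR adjusted p = 0.00489), at 4 to 21 counts per library, and 23.4% of its exon length is shared with *Sec1* on the opposite strand. *Unc5b* (ENSMUSG00000020099, chr10:60762593-60831581 on GRCm38, minus strand), a repulsive netrin receptor also found on vessels, was at 123, 124, 125 and 129.9 CPM in vehicle and 219, 209.9, 215 and 218 CPM with TGF-β1. The groups were tight and far apart, with means of 126 ± 3.11 and 215 ± 4.14 CPM (SD, n = 4) (log2 fold change 0.78 ± 0.03 SE, edgeR adjusted p = 9.13e-28). *Unc5c* moved from 67.5, 67.3, 75.05 and 70.04 CPM to 93.5, 108, 108 and 111 CPM (log2 fold change 0.59 ± 0.06 SE, edgeR adjusted p = 4.13e-06), with replicate 5 the lowest treated culture. *Unc5a* was not called and *Unc5d* was below the filter at 2 to 12 counts.

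The attractive netrin receptor *Dcc* was low (6 to 18 counts per library, 0.264 and 0.288 CPM) and not called. Neogenin (*Neo1*), its relative, was abundant and fell from 475 to 374 CPM (log2 fold change -0.35 ± 0.02 SE, edgeR adjusted p = 1.72e-17), while *Unc5b* and *Unc5c* rose. The neogenin ligands *Rgma* and *Rgmb*, chosen after their values were seen, also fell (-0.23 ± 0.04 and -0.41 ± 0.03 on the log2 scale, SE). Among FLRT genes, whose proteins can bind Unc5 receptors, *Flrt1*, chosen after its values were seen, fell from 26.03 to 22.4 CPM (log2 fold change -0.21 ± 0.06 SE, edgeR adjusted p = 0.00317), while *Flrt2* rose from 141 to 243 CPM (log2 fold change 0.79 ± 0.03 SE, edgeR adjusted p = 6.98e-19) and *Flrt3* fell from 12.1 to 4.31 CPM (log2 fold change -1.49 ± 0.08 SE, edgeR adjusted p = 1.21e-19).

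The neighboring pathway genes were taken as a list of 72 coreceptors, other ligands and intracellular partners. Of 69 tested, 27 were higher, 19 lower and 23 not called, so 66.7% were called, against 41.3% of all tested genes. With a group mean of at least 1 CPM, 46 of 64 (71.9%) were called, against 51.1%. The list was chosen with earlier results of these data known, so these shares cannot decide whether it stands apart from other genes. Changes of at least 0.5 on the log2 scale were higher in 10 genes and lower in 1, which was *Flrt3*, and these 11 were 15.9% of the list, against 14.0% of all tested genes. Among receptors and ligands, 5 of 20 tested were higher and 6 lower. The shares of all tested genes were 20.9% higher and 20.3% lower, and 26.1% and 25.0% with a group mean of at least 1 CPM. *Lrrc4c*, the netrin-G1 receptor, rose from 4.03 to 14.5 CPM (log2 fold change 1.84 ± 0.09 SE, edgeR adjusted p = 5.45e-22), and *Islr2*, a leucine-rich repeat membrane protein of growing axons, from 0.573 to 1.53 CPM (log2 fold change 1.41 ± 0.22 SE, edgeR adjusted p = 5.10e-07). The netrin-G1 gene *Ntng1*, chosen after its values were seen, was not called. Among intracellular partners, 22 of 49 tested were higher and 13 lower, beside the same shares of all tested genes. A difference from these shares was not tested for either part of the list. The semaphorin effectors of the CRMP and MICAL families were divided, and the rises of at least 0.5 were in *Dpysl3* (230.4 to 337 CPM, log2 fold change 0.55), *Crmp1* (1.98 to 3.09 CPM, 0.65) and *Mical2* (389.9 to 552 CPM, 0.50). Of the same families, and chosen after their values were seen, *Dpysl2* was lower (-0.12), *Dpysl5*, *Mical1* and *Mical3* were not called and *Dpysl4* was below the filter. Among actin regulators, *Ablim1* was lower (-0.12) and *Limk1* was not called, also chosen after their values were seen, and rises of at least 0.5 were in *Ablim3* (2.93 to 8.04 CPM, 1.46) and *Limk2* (98.7 to 149 CPM, 0.59). *Rasa1*, a Ras GTPase-activating protein recruited by EphB receptors, rose from 151 to 232 CPM (0.62). The exchange factor *Vav3* rose from 7.02 to 10.8 CPM (0.62). Of the same list, and chosen after their values were seen, *Nck2* (-0.37) and *Nck1* (-0.11) were lower, and *Vav2* and *Ngef* were not called.

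Among the TGF-β1 cultures, replicate 5 was closest to the vehicle mean for 18 of the 42 called members (42.9%), and replicates 6, 7 and 8 for 6, 8 and 10. Over all 9304 called genes the corresponding shares were 37.2% for replicate 5 and 18.9% to 23.8% for the others. *Sema7a*, *Sema4f*, *Epha5*, *Plxna4* and *Unc5c* were closest to the vehicle mean in this culture, genes chosen after their values were seen. Without replicate 5, 27 members were higher and 16 lower.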

How the data were processed

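Total RNA of the 8 cultures was prepared with a stranded kit and sequenced. The authors mapped them to mm10 (STAR 2.7.5c), took out PCR duplicates (samtools 1.15) and summed reads over genes (featureCounts 2.0.3), and the deposited values are raw counts. Whether strand was used, which annotation was counted and how read pairs were handled was not given in the sources used here. Between 68.5% and 70.2% of counts from 1 to 20 were even, and if both mates were counted, there were fewer independent fragments than counts. Replicate pairs within a group differed by more than sampling noise, also with the counts divided by 2.

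Counts were analysed with edgeR 4.0.16 in R 4.3.3 (filterByExpr, TMM factors of 0.988 to 1.01, robust dispersion, quasi-likelihood test), with Benjamini-Hochberg adjustment over 22544 genes and a threshold of 0.05. The standard error is the size of the log2 fold change over the square root of the F statistic. Of 54532 identifiers, 54495 had a symbol and position in GENCODE M21 on GRCm38. Level per length is CPM per kilobase of merged exons. DESeq2 1.42.0, other scalings and count filters, halved counts and leaving out each culture were the alternatives. The code was tested on simulated data. The members, lists and naming rule were chosen with earlier results of these data known. By that rule, called members with a log2 fold change of at least 0.5 in size or a group mean of at least 1 CPM are given in every culture, up to the 8 largest changes per family. Named pathway genes are *Nrp1*, *Nrp2*, *Dcc*, *Neo1* and those called with at least 0.5 on the log2 scale, and others are said to have been chosen after their values were seen. Some genes of the lists are not reported here.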

Additional observations from a re-analysis of the deposited data

Results flagged for a closer look

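In groups of 4 cultures, 8 of 120 sets of values had 1 culture far from the other three, relative to the range of the group, and chance gives about 1 in 20, or 6. In TGF-β1 replicate 5, *Plxnb3* had 0.589 CPM where the nearest culture had 0.298 CPM. *Epha5* was at 2.71 CPM in the same culture, against 1.85 CPM, and *Epha7* at 40.4 CPM, against 37.2 CPM. In TGF-β1 replicate 7, *Epha10* was at 0.677 CPM, against 0.348 CPM, and *Robo1* at 34.5 CPM, against 36.8 CPM. In the vehicle group, *Epha1* was at 5.74 CPM in replicate 4, against 5.10 CPM, *Ephb3* at 42.1 CPM in replicate 3, against 45.4 CPM, and *Ntn5* at 0.0868 CPM in replicate 1, against 0.126 CPM.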

How the results depend on the processing

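Over 15 alternatives (DESeq2, other scalings and filters, halved counts and each culture left out), 25 to 28 members were higher and 13 to 16 lower, and 8559 to 9311 genes were called in all. Scaling moved the median of all genes by at most 0.01 on the log2 scale. Calls were lost for *Efnb3* and *Plxnc1* (largest adjusted p 0.0902 and 0.109), and *Plxnc1* was also not called by DESeq2 (adjusted p = 0.062). Calls were gained for *Plxnb1* without vehicle replicate 2, *Sema6c* without vehicle replicate 4 and *Plxnb3* without TGF-β1 replicate 5. Genes that were not called changed sign, as *Unc5a* went from -0.00 to 0.0033 with DESeq2 and 0.0038 with its size factors in edgeR, and from -0.16 to 0.11 without single cultures, and *Dcc* from -0.10 to 0.33. The cause was not tested. No other member changed direction or call in the alternatives that gave it a value. No paired analysis was possible because the groups share no replicate numbers. The low genes *Robo4*, *Ntn5* and *Dcc* held few counts per library (4 to 29, 4 to 21 and 6 to 18). Whether depth limits their results was not tested.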
